A study of Homo sapiens with 6 samples.

Results

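Polycomb repressive complex 1 (PRC1) and the histone H3 lysine 27 demethylases act on either side of the mark that EZH2 writes, and their transcripts were compared between control and EZH2 knockdown cells. The 9 genes were chosen by name, BMI1, RNF2, RING1, CBX2, CBX7, CBX8, PHC1, KDM6A and KDM6B, out of 30015 genes in the deposited table, and each name matched 1 row. RNA was sequenced from HMV-II, a human vaginal mucosal melanoma cell line, in 3 libraries labelled Vector (genotype WT) and 3 labelled shEZH2 (genotype EZH2 knockdown), all grown in serum-supplemented F10 medium with no further treatment. Per the study's methods, knockdown cells carried a lentiviral shRNA against EZH2 and control cells a scrambled shRNA, and both were selected with puromycin as stable lines. The table heads the groups A_shNC and B_sh1, so that 1 shRNA in 1 cell line stands for the knockdown, and effects of that shRNA and of the loss of EZH2 cannot be told apart. Nothing in the labels says whether the libraries came from separate cultures, so the p-values below measure only the spread between these libraries.

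EZH2 is the catalytic subunit of PRC2, which trimethylates histone H3 at lysine 27. Canonical PRC1 reads that mark through the chromodomain of a CBX protein, and its RING1 or RNF2 subunit, paired with BMI1 or PCGF2, ubiquitinates histone H2A. Polyhomeotic (PHC) proteins polymerize through their SAM domains and compact the bound chromatin. KDM6A and KDM6B remove methyl groups from lysine 27 and so oppose PRC2. BMI1 is best known as a repressor of the INK4A-ARF locus, whose products halt the cell cycle.

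None of the 9 genes was called higher or lower with EZH2 knockdown. The table holds reads per gene divided by 1 size factor per library, called normalized counts here, and all 9 genes had a mean of at least 10 of them and were tested with the other genes of that level. A gene was called at the threshold of the study's methods, an unadjusted p under 0.05 with a fold change over 1.5 in either direction. By limma, 0 of the 9 genes were called higher, against 7.55% of the 15251 genes tested, and 0 were called lower, against 7.07%. None had an unadjusted p under 0.05, and the smallest adjusted p was 0.311 (limma, Benjamini-Hochberg adjustment), beside 4.12% of all genes with an adjusted p under 0.05. With only 9 genes, a count of 0 does not set them apart from shares of this size. By edgeR and DESeq2 on the recovered reads, 0 of the 9 also had an unadjusted p under 0.05. Of the 9, 5 had a log2 fold change above 0 and 4 below 0, with a median of 0.051 beside 0.039 over all genes tested. In 3 of the 9 genes (33.3%), CBX7, PHC1 and KDM6B, the ranges of the groups were separate, a share close to the 34.8% of all genes tested.

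The knockdown itself was seen in the same libraries, where EZH2 fell from 491 ± 58.0 normalized counts (SD, n = 3) in Vector to 236 ± 10.7 in shEZH2 libraries, a log2 fold change of -1.04 (adjusted p = 0.0142 in limma). Recovered depth ran from 13400290 to 19128939 reads per library. The 8 melanocyte markers examined, of which 2 were called higher and 1 lower, summed to between 75515 and 100744 normalized counts in Vector libraries. In shEZH2 libraries they summed to between 78898 and 85355. PMEL made up most of these sums, with means of 60992 in Vector and 56472 in shEZH2 libraries. The called markers TYRP1, MLANA and TYR had log2 fold changes of 1.68, 0.88 and -0.97 (adjusted p = 0.00317, 0.214 and 0.0532 in limma). Without Vector replicate 2 they were 1.64, 0.39 and -1.22, and MLANA was then short of the fold threshold. Over all genes tested, 7.55% were called higher and 7.07% lower with 6 libraries. Of 10 epithelial, immune, endothelial and stromal markers, 8 were in the table, 2 of them with a mean of at least 10 and neither called. These 8 summed to between 80.5 and 111 in Vector and between 83.1 and 124 in shEZH2 libraries. Vector replicate 2 stood apart from Vector replicates 1 and 3 along gene length. Its median log2 deviation from the mean of those 2 libraries was -0.54 in the quintile of shortest genes and 0.42 in that of the longest. It was the lowest of the 6 libraries for 5 of the 9 genes and the highest for 3, so the values of the 9 genes are also given without it.

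**Figure D1:**
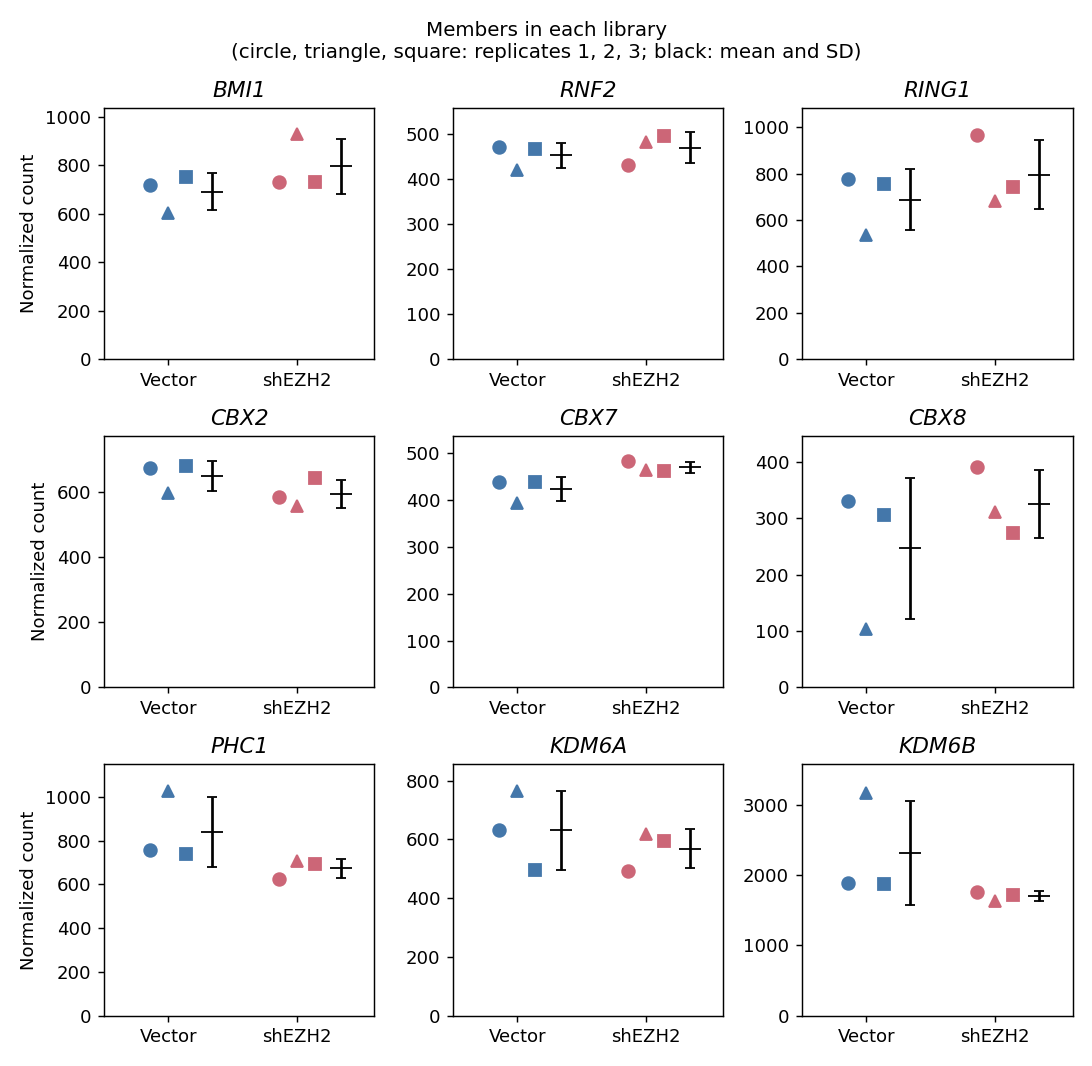
Normalized counts (y axis, from 0) of the 9 genes in the 3 Vector (blue) and 3 shEZH2 (red) libraries, with circles, triangles and squares for replicates 1, 2 and 3 and black bars for the mean ± SD. The triangle of Vector lies away from the other Vector libraries in CBX8, PHC1 and KDM6B, where the other 5 libraries lie closer together.

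In the E3 ligase core, RNF2 was near even between the groups, and the interval of RING1 was wider. RNF2 (RING1B, ENSG00000121481), the main ubiquitin ligase of PRC1, lies on the plus strand of chromosome 1 from 185045364 to 185102608 in GRCh38. It had normalized counts of 471, 420 and 466 in the Vector group and of 430, 481 and 496 in the shEZH2 group, in the order of replicates 1, 2 and 3 that is kept throughout. The groups overlapped, and the log2 fold change was 0.051 (95% confidence interval -0.26 to 0.36, limma), the smallest in size of the 9, and -0.0013 without Vector replicate 2. Its paralogue RING1 (RING1A, ENSG00000204227; chromosome 6, plus strand, 33208495 to 33212722) had 775, 536 and 753 normalized counts in Vector and 965, 681 and 742 in shEZH2 libraries. One library in each group stood off, low in Vector replicate 2 and high in shEZH2 replicate 1, and the log2 fold change was 0.21 (interval -0.26 to 0.69), or 0.043 without Vector replicate 2.

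BMI1 (PCGF4, ENSG00000168283), which holds RNF2 in its active form, lies on the plus strand of chromosome 10 from 22321211 to 22331484. It had 717, 604 and 752 normalized counts in Vector and 729, 928 and 731 in shEZH2 libraries. Only shEZH2 replicate 2 lay above the highest Vector library, and the log2 fold change was 0.20 (interval -0.17 to 0.57), or 0.11 without Vector replicate 2. Reads of BMI1 are partly shared in annotation with COMMD3-BMI1, a readthrough gene on the same strand for which the deposited data hold no values. In GENCODE v44, 22.8% of the exonic bases of BMI1 also belong to that gene. Whether reads there were counted for BMI1 or dropped is not known. That is a share of bases and not of reads, so how much of the BMI1 count is uncertain is not known either. COMMD3, the gene 902 bases upstream, had 112, 43.1 and 122 normalized counts in Vector and 110, 112 and 105 in shEZH2 libraries, and its groups overlapped.

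The CBX subunits, which read the methylated lysine, gave the widest and the narrowest values of the set. CBX2 (ENSG00000173894) is on the plus strand of chromosome 17 from 79778132 to 79787983. It had 673, 597 and 679 normalized counts in Vector and 585, 558 and 643 in shEZH2 libraries, with a log2 fold change of -0.13 (interval -0.44 to 0.18). Vector replicate 2 fell among the shEZH2 libraries, and the other Vector libraries lay above all 3 of them.

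CBX7 (ENSG00000100307; chromosome 22, minus strand, 39120167 to 39152674) had 439, 394 and 438 normalized counts in Vector and 484, 465 and 461 in shEZH2 libraries. The lowest shEZH2 value was above the highest Vector value, and an exact permutation test, two-sided, gave p = 0.1, its minimum with 3 libraries a side, but the log2 fold change was only 0.15 (interval -0.14 to 0.45, limma), and 0.099 without Vector replicate 2. The antisense gene AL031846.2, with a mean of 65.3 normalized counts, overlaps CBX7 over 3671 bases, and the strandedness of the libraries is not given in the sources used here. Whether reads of the 2 genes could be told apart where they overlap is therefore not known. In GENCODE v44, 17.9% of the exonic bases of CBX7 are shared with a gene on the opposite strand. On the same strand 3.67% are shared, with COX5BP7.

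CBX8 (ENSG00000141570; chromosome 17, minus strand, 79792132 to 79801683), which lies 4148 bases from CBX2, had the largest log2 fold change of the 9, at 0.55, and the widest interval, -0.44 to 1.54. Its normalized counts were 331, 104 and 305 in Vector and 391, 311 and 273 in shEZH2 libraries. Vector replicates 1 and 3 lay within the range of the shEZH2 libraries, and Vector replicate 2 lay far below all others. Without Vector replicate 2 the log2 fold change was 0.014 (interval -0.32 to 0.35).

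PHC1 (ENSG00000111752), the polyhomeotic member of the set, lies on the plus strand of chromosome 12 from 8913896 to 8941467. It had 756, 1026 and 740 normalized counts in Vector and 625, 706 and 693 in shEZH2 libraries. All shEZH2 libraries were below all Vector libraries (exact two-sided permutation test, p = 0.1), and the log2 fold change was -0.30 (interval -0.69 to 0.083, limma), and -0.15 without Vector replicate 2. The nearest libraries of the groups differed little, 706 against 740. The last 1105 bases of the gene overlap M6PR, an opposite-strand gene that averaged 2054 normalized counts. In GENCODE v44, 18.0% of the exonic bases of PHC1 are shared in this way, so part of its count could belong to M6PR. The other overlapping genes, AC006581.2 at PHC1, AC100791.2 at CBX8 and FTH1P25 at RNF2, all on the opposite strand, had means of 0.399, 0.717 and 0.364 normalized counts.

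The demethylases did not move apart from each other beyond the spread of the libraries. KDM6A (UTX, ENSG00000147050; chromosome X, plus strand, 44873177 to 45112602), which works inside the MLL3 and MLL4 enhancer complexes, had 634, 764 and 496 normalized counts in Vector and 492, 620 and 595 in shEZH2 libraries. The groups overlapped, and the log2 fold change was -0.13 (interval -0.58 to 0.31), or 0.014 without Vector replicate 2.

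KDM6B (JMJD3, ENSG00000132510; chromosome 17, plus strand, 7839904 to 7854796), known as the signal-induced enzyme of the pair, had 1891, 3173 and 1874 normalized counts in Vector and 1762, 1627 and 1720 in shEZH2 libraries. All shEZH2 libraries were below all Vector libraries (exact two-sided permutation test, p = 0.1). The log2 fold change was -0.40 (interval -0.90 to 0.11, adjusted p = 0.314 in limma). Without Vector replicate 2 it was -0.15 (interval -0.35 to 0.063).

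**Figure D2:**
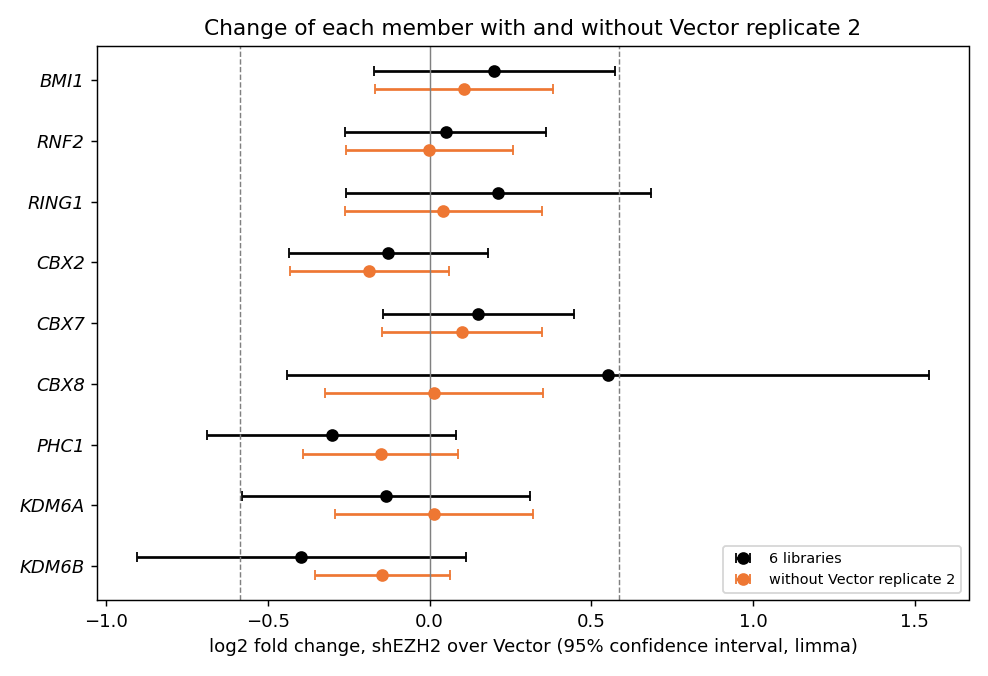
log2 fold change of each gene, shEZH2 over Vector (x axis), with its 95% confidence interval from limma, for all 6 libraries (black) and without Vector replicate 2 (orange); dashed lines mark a fold change of 1.5 in either direction. All intervals include 0, and without Vector replicate 2 all 9 lie inside the dashed lines.

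The intervals set how large a change these libraries could still hold. With 6 libraries, 8 of the 9 intervals lay within a fold change of 2 in either direction, CBX8 being the exception, and 5 of the 9 lay within 1.5, those of BMI1, RNF2, CBX2, CBX7 and KDM6A. Without Vector replicate 2 all 9 intervals lay within 1.5. The largest log2 fold change was then that of CBX2, at -0.19 (interval -0.43 to 0.060), and again 0 of the 9 genes were called, against 12.7% of all genes. None had an adjusted p under 0.05 in that fit, against 18.9% of all genes. A set of 9 genes is too small for 0 to differ clearly from either share. The spread of the Vector group then comes from 2 libraries.

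The deviation of Vector replicate 2 among the 9 genes ran from -1.61 on the log2 scale in CBX8 to 0.75 in KDM6B. RING1, the shortest of the set with a length of 1818 bases in the table, deviated by -0.51, and PHC1, KDM6A and KDM6B, at 6090 to 7258 bases, by 0.45, 0.45 and 0.75. CBX7 did not follow this order, with the greatest length, 7461 bases, and a deviation of -0.16. CBX2, at 5687 bases, deviated by -0.18, and both lay below the median of 0.13 in the length quintile that they share. CBX8 had a length of 4164 bases, near those of RNF2 and BMI1, but only 4.70% of the genes tested deviated further downwards. What set the level of CBX8 in that library was not tested.

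Ratios between paralogues do not depend on the size factor of a library, and 6 of them were compared between the groups by exact two-sided permutation tests. In 1 of the 6, CBX2 to CBX7, the groups did not overlap. Its log2 ratio was 0.62, 0.60 and 0.63 in Vector and 0.27, 0.26 and 0.48 in shEZH2 libraries, a fall of the mean by 0.28 (exact permutation p = 0.1, the minimum possible, and 0.6 adjusted over the 6 ratios). Vector replicate 2 was no exception here, and without it the difference was -0.29. These genes encode alternative readers that occupy the same place in the complex.

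The other 5 ratios overlapped between the groups. The log2 ratio of KDM6B to KDM6A averaged 1.85 ± 0.25 (SD, n = 3) in Vector and 1.59 ± 0.23 in shEZH2 libraries, and that of RNF2 to RING1 averaged -0.59 ± 0.21 and -0.75 ± 0.36. The ratio of BMI1 to PCGF2 (MEL18), which take the same place beside RNF2, averaged 0.44 ± 0.28 and 0.29 ± 0.26. In both ratios with CBX8, Vector replicate 2 lay far from the rest. The log2 ratio of CBX2 to CBX8 was 2.52 in that library against 0.58 to 1.23 in the other 5, and the ratio of CBX8 to CBX7 was -1.91 against -0.75 to -0.30. The differences between the group means of the 5 ratios without that library were -0.16 (KDM6B to KDM6A), -0.044 (RNF2 to RING1), 0.019 (BMI1 to PCGF2), -0.20 (CBX2 to CBX8) and -0.085 (CBX8 to CBX7).

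Per kilobase of the gene length in the table, RING1 was the highest of the 9 genes and CBX7 the lowest in both groups. In shEZH2 libraries the order of mean levels was RING1 with 438 ± 82.1 normalized counts per kilobase (SD, n = 3), KDM6B with 235 ± 9.53, BMI1 with 186 ± 26.6, RNF2 with 115 ± 8.38, PHC1 with 111 ± 7.18, CBX2 with 105 ± 7.59, KDM6A with 79.7 ± 9.46, CBX8 with 78.1 ± 14.5 and CBX7 with 63.0 ± 1.62. The libraries of RNF2 and PHC1, of PHC1 and CBX2, and of KDM6A and CBX8 overlapped, so these neighbours were not separated. In Vector libraries more neighbours overlapped. RING1 had 378 ± 72.8 and KDM6B 319 ± 103 normalized counts per kilobase, and they overlapped, as did BMI1 with PHC1 and each neighbouring pair from CBX2 down through RNF2, KDM6A and CBX8 to CBX7. These levels rest on the table's gene lengths, whose making is not given in the sources used here. For KDM6A the table has 7139 bases where the exons of GENCODE v44 cover 27742, so its place in the order depends on the length taken.

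Shares within paralogue families were taken from the same levels. The polyhomeotic family was led by PHC2, and PHC1 held 11.1% ± 1.64 (SD, n = 3) of its normalized counts per kilobase in Vector and 9.87% ± 1.05 in shEZH2 libraries, with overlapping groups. PHC2 held 75.4% ± 6.64 and 83.0% ± 2.65, and PHC3 13.4% ± 5.01 and 7.09% ± 1.61, both with separate groups (exact permutation test, p = 0.1 for each, not adjusted). As parts of the same sum, the shares of PHC2 and PHC3 are not independent of each other. In Vector replicate 2 PHC2 held 67.8% and PHC3 19.2%. In Vector replicates 1 and 3 PHC2 held 79.6% and 79.0%, and PHC3 10.2% and 10.9%. BMI1 and PCGF2 were near even, with BMI1 at 52.6% ± 4.86 and 50.1% ± 4.46 of their sum. RING1 held 77.0% ± 2.58 and 78.8% ± 3.99 of the sum with RNF2. KDM6B held 77.9% ± 2.98 and 74.6% ± 2.95 of the sum with KDM6A.

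The 8 other canonical PRC1 subunits, taken as a list, had 0 higher and 2 lower at the threshold and a median log2 fold change of -0.23. PHC3, the paralogue of PHC1, fell from 2833 ± 1183 normalized counts (SD, n = 3) in Vector to 1342 ± 249 in shEZH2 libraries, a log2 fold change of -1.02 (adjusted p = 0.0929 in limma). Without Vector replicate 2 it was -0.70 (adjusted p = 0.00405). SCML1, a protein related to the fly polycomb protein Scm, fell from 408 ± 107 to 258 ± 42.5, a log2 fold change of -0.64 (adjusted p = 0.162 in limma), although its groups overlapped. Without Vector replicate 2 its log2 fold change was -0.87, and with Vector replicate 1 or 3 or shEZH2 replicate 1 or 3 left out it was not called, at -0.48 to -0.58.

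CBX6 had a log2 fold change of -0.54 with an adjusted p of 0.231, and of -0.27 without Vector replicate 2. It was called lower by edgeR at -0.60, by DESeq2 at -0.62, and in limma without Vector replicate 1 or 3 at -0.67 and -0.69. PCGF2, PHC2, SCMH1 and SCML2 had log2 fold changes of 0.34, 0.0089, 0.20 and 0.15, with adjusted p-values from 0.369 to 0.974 in limma.

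Of 27 subunits of the variant PRC1 complexes, which lack the CBX subunits of canonical PRC1 and carry RYBP or YAF2, 1 was called higher and 1 lower. Their median log2 fold change was -0.027. TFDP1, the dimerization partner of E2F factors, rose by 0.84 on the log2 scale (adjusted p = 0.0528 in limma), and by 0.65 without Vector replicate 2. PCGF5, which replaces BMI1 in a variant complex, fell by 0.71 (adjusted p = 0.0924), and by 0.53 without Vector replicate 2, where it was short of the fold threshold.

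Among 9 tested genes of H2A deubiquitination, 2 were lower and 0 higher. OGT, the O-GlcNAc transferase bound to the BAP1 complex, fell by 0.71 on the log2 scale (adjusted p = 0.0490 in limma), and MYSM1, a histone H2A deubiquitinase, by 0.63 (adjusted p = 0.110). Among 8 partners of KDM6A in the MLL3 and MLL4 complexes, 2 were higher and 0 lower. ASH2L rose by 0.72 (adjusted p = 0.0355) and PAGR1 by 0.71 (adjusted p = 0.127), and both are complex subunits. MYSM1 and PAGR1 were short of the fold threshold without Vector replicate 2, at -0.48 and 0.57, and without shEZH2 replicate 1, at -0.51 and 0.55. PAGR1 was also not called without shEZH2 replicate 3, at 0.69. With a trend on gene length removed from each library, OGT, MYSM1 and PAGR1 were short of the fold threshold, at -0.56, -0.51 and 0.48. OGT was at -0.72 and ASH2L at 0.67 without Vector replicate 2.

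Among 17 other JmjC demethylases, 0 were higher and 2 lower. KDM7A, which also acts on lysine 27, fell by 0.75 (adjusted p = 0.0933 in limma), and JMJD1C by 0.78 (adjusted p = 0.131), and without Vector replicate 2 both were short of the fold threshold, at -0.57 and -0.49. JMJD1C was also not called without shEZH2 replicate 1, at -0.67. Of the 6 PRC2 core genes, EZH2 was the one called. Over these lists and the INK4A-ARF locus together, 3 of 77 genes tested were higher (3.90%) and 8 lower (10.4%), the latter with EZH2 among them, beside the 7.55% and 7.07% of all genes given above. These counts moved with the library left out, to 2 higher and 5 lower without Vector replicate 2, 6 and 13 without Vector replicate 1, and 6 and 14 without Vector replicate 3. The counts over all 15251 genes tested, 1151 higher and 1078 lower with 6 libraries, moved in the same directions. They were 1075 and 860 without Vector replicate 2, 1525 and 1318 without Vector replicate 1, and 1431 and 1261 without Vector replicate 3.

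**Figure D3:**
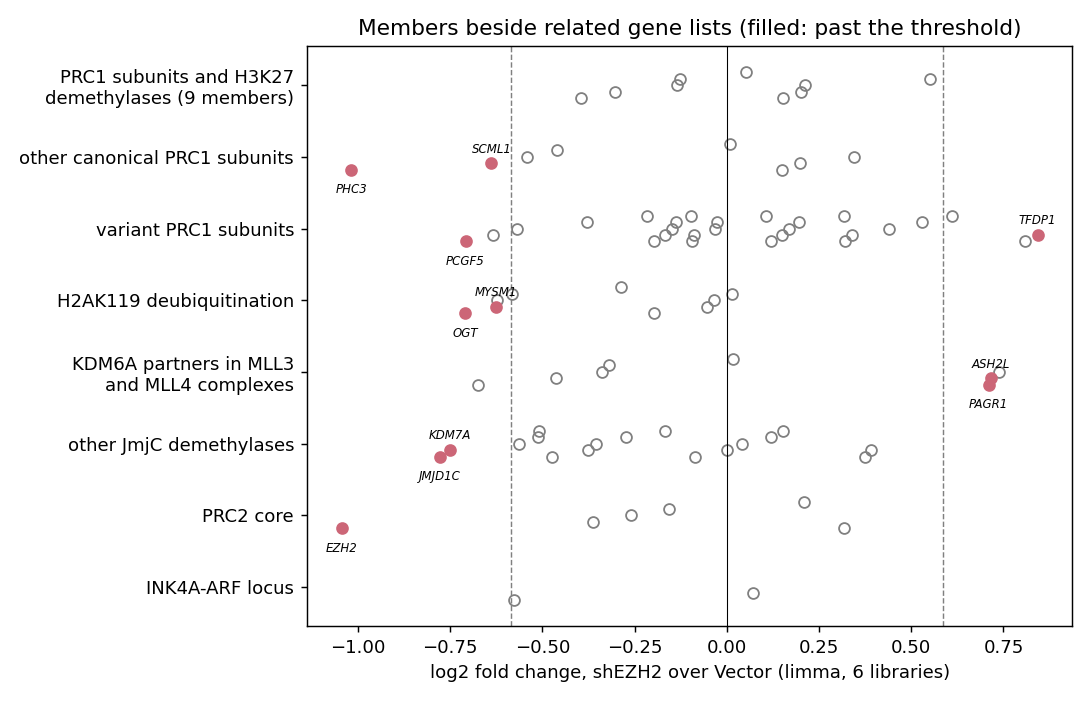
log2 fold change, shEZH2 over Vector (x axis), of the 9 genes (top row) and of 7 lists of related genes, 1 circle per gene, filled and named where past the threshold; dashed lines mark a fold change of 1.5. The top row holds no filled circle, and PHC3 and EZH2 lie furthest to the left, at -1.02 and -1.04.

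The INK4A-ARF locus, the classic target of BMI1, had no gene called by limma with 6 libraries, but CDKN2B was called lower under several alternatives. CDKN2A had 2087, 611 and 1962 normalized counts in Vector and 1791, 1262 and 1287 in shEZH2 libraries, a log2 fold change of 0.072 with 6 libraries and of -0.50 without Vector replicate 2 (adjusted p = 0.935 and 0.0241 in limma). CDKN2B had 1248, 968 and 1208 in Vector and 805, 789 and 691 in shEZH2 libraries. Its groups did not overlap, and its log2 fold change of -0.58 (adjusted p = 0.0799) was just short of the threshold with 6 libraries and past it, at -0.69 (adjusted p = 0.000965), without Vector replicate 2. It was also past the threshold with 6 libraries by edgeR at -0.59, by DESeq2 at -0.60 and with the length trend removed at -0.69, and without shEZH2 replicate 1 or 2, at -0.62 and -0.60. In the other alternatives CDKN2B stayed short of the fold threshold. It was at -0.54 with TMM scaling, and at -0.51, -0.53 and -0.51 without Vector replicate 1, Vector replicate 3 or shEZH2 replicate 3. With the other pseudocounts, the other minimum means and the replicate block it was at -0.57 to -0.58.

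CBX8, as the gene with the largest log2 fold change in size, was compared in pattern with the other 11890 genes that had a mean of at least 50 normalized counts. The genes most like it over the 6 libraries were SCAND1, CISD3 and SERPINB6, with Pearson's r of log2 values of 0.999, 0.999 and 0.998. All 3 were lowest in Vector replicate 2, with 499, 136 and 291 normalized counts against 1216 to 1610, 441 to 671 and 418 to 465 in the other 5. The points share that library, and 1282 genes had an r over 0.95 with CBX8.

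The start regions of 7 of the 9 genes matched RefSeq promoters of GRCh38.p14, in 10 windows, and CBX2 and CBX8 did not match. In the 250 bases before the start, 34 CpG dinucleotides were found for RNF2, 34 for RING1, 41 for CBX7 and 27 for KDM6A, against a median of 11 over 35116 windows. BMI1 had 35 and 54 in its 2 windows, PHC1 10 and 23, and KDM6B 21 and 1. Most of these starts were thus rich in CpG, but 1 window each of PHC1 and KDM6B was below the median.

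The E-box CACGTG, a palindrome bound by MYC and by MITF, was searched in the same windows because MYC factors are known activators of BMI1. It was found in 2 of the 10 windows, 1 of BMI1 and that of KDM6A, and in 6.34% of all windows. The E2F motifs TTTGGCGC and TTTCCCGC, on either strand, were in 0 of the 10 windows and in 0.550% and 1.39% of all windows. A match describes the letters of the window and shows no binding. The windows with the E-box are printed 5′ to 3′ with the motif in capitals, since they are the 2 windows with a match.
BMI1, plus strand, chr10:22320849-22321098: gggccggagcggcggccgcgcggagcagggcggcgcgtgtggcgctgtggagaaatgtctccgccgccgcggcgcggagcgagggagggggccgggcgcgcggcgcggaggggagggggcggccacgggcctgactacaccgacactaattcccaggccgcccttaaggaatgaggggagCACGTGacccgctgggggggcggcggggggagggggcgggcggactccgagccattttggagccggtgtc
KDM6A, plus strand, chrX:44872938-44873187: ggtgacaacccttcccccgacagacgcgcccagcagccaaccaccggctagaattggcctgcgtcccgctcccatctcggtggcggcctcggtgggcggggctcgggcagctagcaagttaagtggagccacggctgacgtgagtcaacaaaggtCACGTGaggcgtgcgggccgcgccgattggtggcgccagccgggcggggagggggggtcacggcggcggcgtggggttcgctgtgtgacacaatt
In BMI1 the motif starts 70 bases before the annotated start and in KDM6A 95 bases before it. Neither gene was called, with log2 fold changes of 0.20 and -0.13.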

How the data were processed

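HMV-II libraries labelled Vector (3) and shEZH2 (3) were compared. The authors' tools, per the study's methods, were featureCounts v1.5.0-p3 for read counting and DESeq2 1.20.0. Values as deposited are a signal: the reads of each gene after division by 1 size factor per library. Columns were matched to samples by group letter and replicate number. In each library 100% of values were whole multiples of the smallest (tolerance 0.001), which gave back the reads. The authors' group mean columns matched the means of the columns assigned, and 0 sample columns were unused. Columns of the authors' own fold changes and p-values were not used. Gene coordinates are those of GRCh38, although the labels list hg19, and the aligner is not given in the sources used here.

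Groups were compared with limma 3.58.1, with its trend option, on log2-transformed normalized counts (pseudocount 1) for 15251 genes with a mean of at least 10, with Benjamini-Hochberg adjustment over all of them. Fold changes are on that scale. No replicate block was used. Exact permutation tests used the 20 arrangements of 6 libraries. Scripts were tested on simulated data. Named were the 9 genes, all other canonical PRC1 subunits, called genes of each further list or the one with the smallest p, EZH2, genes overlapping a member and the 3 genes most like the member with the largest change. Of the genes this rule names, 1 is not reported here. COMMD3, CDKN2A, PMEL, TYRP1, MLANA and TYR were added after their values were seen. The members and lists were chosen with earlier results of these data known. Exon sharing came from GENCODE v44 lifted to GRCh37, and no coordinates of that build are given. Promoter sequences are RefSeq's (GRCh38.p14).

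Alternatives were pseudocounts of 0.1 and 5, no minimum and a mean of at least 50, edgeR 4.0.16 and DESeq2 1.42.0 on recovered reads, TMM scaling, removal of a gene length trend by loess, a replicate block, each library left out, an adjusted p, and a log2 threshold of 1. R 4.3.3 was used.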

Additional observations from a re-analysis of the deposited data

How the results depend on the processing

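With each of the 15 alternatives fitted, 0 of the 9 genes were called higher and 0 lower, and none had an unadjusted p under 0.05. An adjusted p or a log2 threshold of 1 also gave 0 and 0. Directions turned only near 0: RNF2 was at -0.062 with the length trend removed and at -0.0013 to 0.11 with each library left out, RING1 at -0.020 with the trend removed, and KDM6A at -0.30 to 0.014 with each library left out. CBX8 ran from 0.014 to 0.85 and KDM6B from -0.52 to -0.15 with each library left out. The CBX2 to CBX7 log2 ratio differed by -0.35 to -0.24 with each library left out, and by -0.37 with the length trend removed.

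Of the genes outside the set, PHC2 turned to -0.011 with DESeq2, -0.052 with the length trend removed, and -0.040 to 0.071 with each library left out. CDKN2A turned to -0.10 with edgeR, -0.11 with DESeq2, -0.026 with the trend removed, and -0.50 to 0.38 with each library left out. Over the related lists, 3 genes higher and 8 lower became 3 and 13 with edgeR, 3 and 15 with DESeq2, 1 and 2 with an adjusted p, 0 and 2 with a log2 threshold of 1, both stricter by construction, and 2 to 6 and 5 to 14 with each library left out. Over all genes tested, 1151 higher and 1078 lower became 1086 and 1191 with edgeR, and 1045 and 1321 with DESeq2. The cause of the shifts other than those by construction was not tested.

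Replicate numbers are shared between the groups, and deviations of same-numbered libraries correlated at 0.28, 0.22 and -0.11. With 3 such values it cannot be decided whether same-numbered libraries were prepared together. With a replicate block, 0 of the 9 genes were called, 4 and 10 genes of the related lists were, and over all genes 1322 were higher and 1112 lower in place of 1151 and 1078. Libraries numbered 1 and 2 correlated best with their own number. Vector replicate 3 correlated best with shEZH2 replicate 1, at 0.25, and shEZH2 replicate 3 with Vector replicate 2, at 0.14. Over all genes, 629 had an adjusted p under 0.05, against 424 with the block, 1644 with DESeq2, 1301 with the length trend removed and 4 (without shEZH2 replicate 3) to 2875 (without Vector replicate 2) with a library left out. With 3 libraries a group, precision is limited to the intervals given above.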
